A study of Mus musculus with 19 samples.

Results

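The question addressed here is whether a high fat diet (HFD) changed gene expression differently in the ventral lobe (VP) and the dorsolateral lobe (DLP) of the mouse prostate. It was answered for each probe set with the interaction, the HFD minus control difference in DLP less the HFD minus control difference in VP. A positive interaction therefore means that the signed HFD minus control difference was higher in DLP, and a negative one that it was higher in VP. The sign does not say which lobe changed more, since a negative interaction can come from a rise in VP or a fall in DLP. All 19 arrays of the series entered, and a probe set was tested if it exceeded its array's median on 4 arrays or more, as 24867 of 45101 did. They covered 11728 named genes.

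All animals were C57BL/6J mice, 8 weeks old at the start, that ate their diet freely for 12 weeks, with 5 mice per diet. The groups were control VP (5 arrays), HFD VP (5 arrays), control DLP (5 arrays) and HFD DLP (4 arrays). Whole lobes were used, so fewer cells of a type and less RNA per cell cannot be told apart. The labels do not tie an array to a mouse, and the p-values therefore describe the spread among these arrays. The VP and DLP arrays of a diet together outnumber its mice, so they cannot all come from different mice.

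The rodent prostate is built of paired lobes around the urethra, and each lobe has its own ducts and secretes its own set of proteins into the seminal fluid. All lobes depend on androgens, but their luminal cells differ in the genes they express. A high fat diet supplies lipid to the whole animal, and its known effects in other tissues include changes in sterol synthesis, fatty acid handling, peroxide defence and inflammation.

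The deposited values were taken as log10 of the signal plus 1 and are given here as log2 values. Each of the 19 arrays held the same set of values in another order, so a value stands for a rank and a shift of most genes together could not be seen. The median of each array was 1.85, and a difference between probe sets near or below that level is compressed by the added 1. Spink5, Tgm4 and Pbsn placed the arrays in their labelled lobes, whereas Msmb did not separate them. Spink5, taken as the ventral marker, lay between 8.96 and 10.01 on the VP arrays and between 0.74 and 3.51 on the DLP arrays, and Tgm4, a transglutaminase of prostatic secretion, lay between 1.36 and 2.37 in VP and between 12.31 and 12.73 in DLP. Pbsn, the probasin gene, ranged from 7.40 to 11.98 on the VP arrays against 12.39 to 12.73 in DLP, so its level varied between VP arrays of both diets. Msmb, also listed as a dorsolateral marker, lay between 9.62 and 12.92 in VP and between 12.03 and 12.73 in DLP. The median standard deviation of a probe set was larger in VP (0.181 on control, 0.174 on HFD) than in DLP (0.145 and 0.126).

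Few probe sets could be called as having a diet response that differed between the 2 lobes. Of the 24867 tested, 2 passed an adjusted p of 0.05 for the interaction (0.00804%, limma with Benjamini-Hochberg adjustment). One measured Akr7a5, an aldo-keto reductase that reduces aldehydes, which rose in VP and had overlapping diet groups in DLP. The other measured Ikbkg, the regulatory subunit of the IκB kinase complex of NF-κB signalling, which fell in VP and had higher values on every HFD array in DLP. No further probe set passed at an adjusted p of 0.10. Without adjustment, 2016 probe sets had an interaction p under 0.05 (8.11%), where 1243.4 would be expected if none differed, and of these 1100 were positive (4.42%) and 916 negative (3.68%). The lobes taken alone had 224 probe sets past the adjusted threshold in VP (0.901%) and 0 in DLP (0.0%), where 1350 had an unadjusted p under 0.05 (5.43%). That contrast between a count of 224 and a count of 0 is not a test of a difference between lobes. The interaction is that test, and it passed for 2, neither of which passed with the array number as a fixed block.

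The size of difference these arrays could show was limited. The median standard error of an interaction was 0.162, and the median half-width of its 95% interval was 0.337 on the log2 scale. For 23759 probe sets (95.5%) the whole interval lay within a difference of 1, and for 13659 (54.9%) within 0.5. Among the 224 probe sets that passed in VP, the interval stayed within 0.5 for 25 (11.2%), so few of these responses could be bounded to within 0.5 of each other in the lobes. Across all tested probe sets, the HFD differences in the 2 lobes had a Pearson r of 0.156 and a Spearman rho of 0.12. The 2 differences share no array, but they may share mice and thus variation between mice. Both coefficients are given as a description, also because probe sets are not independent.

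**Figure D1:**
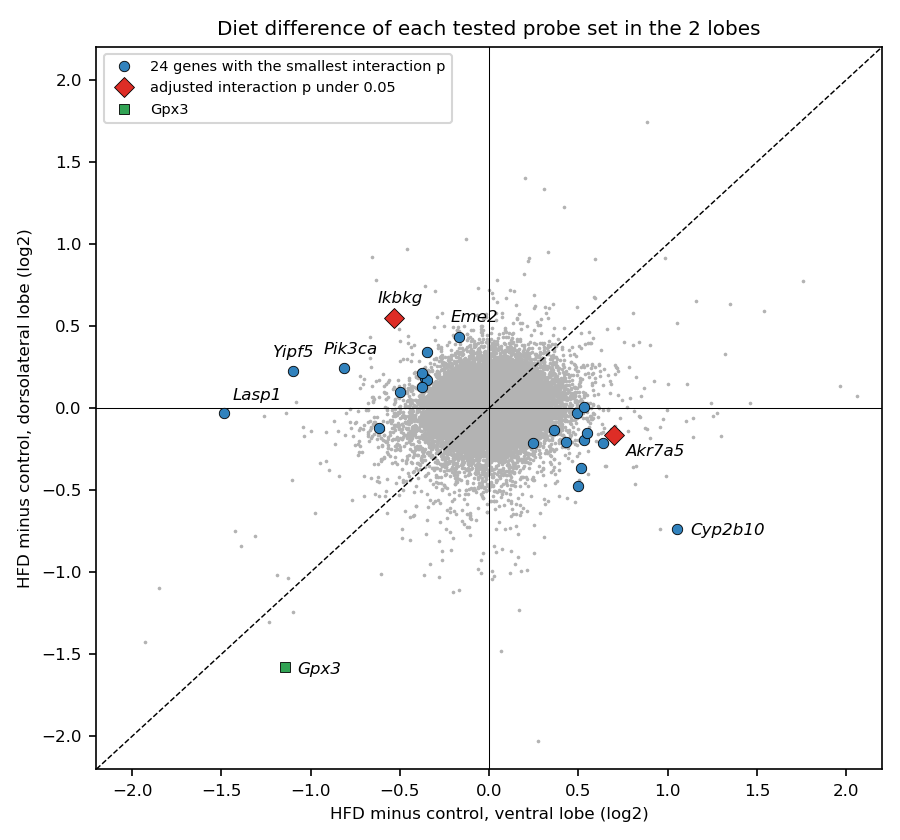
HFD minus control difference of each of the 24867 tested probe sets in the ventral lobe (horizontal axis, log2) and the dorsolateral lobe (vertical axis, log2), with equal responses on the dashed line and 2 probe sets outside the axes. Akr7a5 and Ikbkg, the 2 that passed the interaction test, lie off the line, whereas Gpx3 lies near it with lower values on HFD in both lobes.

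Akr7a5 (probe set 1438315_x_at) was lower in control VP than in any other group. Its log2 values were 3.83, 4.11, 4.32, 4.09 and 4.06 in control VP and 4.91, 4.72, 4.78, 4.82 and 4.66 in HFD VP. In DLP they were 4.81, 4.85, 4.80, 4.94 and 5.19 on the control diet and 4.86, 4.67, 4.69 and 4.80 on HFD. Every HFD array exceeded every control array in VP, the DLP groups overlapped, and the HFD VP arrays lay close to the DLP range. The VP difference was 0.70 ± 0.09 (SE), or 1.62-fold higher on HFD, with an adjusted p of 0.0020. In DLP the difference was -0.16 ± 0.10 (SE), or 1.12-fold lower, with an adjusted p of 0.97. The interaction was -0.86 ± 0.13 (SE), with a 95% interval from -1.13 to -0.59 and an adjusted p of 0.0301.

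The second tested probe set of Akr7a5 (1417294_at) did not show this. Its interaction was 0.09, with a VP difference of -0.04 and a DLP difference of 0.05. The ending x_at marks probe sets whose probes may match other transcripts, and which transcripts the 2 sets measure was not tested. Of the 8 aldo-keto reductases tested, out of 18 listed, Akr7a5 alone passed. Akr1a1, an aldehyde reductase, had an interaction of 0.21 (adjusted p = 0.71), and the median over the 8 was 0.02, with a range from -0.07 to 0.09 when each array was left out, against -0.00051 over all genes.

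Ikbkg (probe set 1435647_at) moved in opposite directions. Its log2 values were 2.62, 2.42, 2.78, 2.70 and 2.59 in control VP and 2.05, 2.13, 2.28, 2.01 and 1.98 in HFD VP. In DLP they were 2.34, 2.22, 1.96, 2.15 and 2.49 on the control diet and 2.96, 2.64, 3.04 and 2.49 on HFD. The diet groups did not overlap in either lobe, although in DLP the highest control and the lowest HFD array were both at 2.49. The VP difference was -0.53 ± 0.11 (SE), or 1.45-fold lower on HFD (adjusted p = 0.0312). The DLP difference was 0.55 ± 0.12 (SE), or 1.46-fold higher, with limma's unadjusted p at 0.00020 and its adjusted p at 0.31. The interaction was 1.08 ± 0.17 (SE), with a 95% interval from 0.73 to 1.43 and an adjusted p of 0.0301.

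The 5 other tested probe sets of Ikbkg had interactions from -0.29 to 0.17, with unadjusted p-values of 0.18 or more. The most abundant of them (1454690_at) had a VP difference of 0.06 and a DLP difference of 0.23. The probe set that passed lay near the array median, and its interaction was 0.70 with an added constant of 4 in place of 1 in the logarithm.

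Both calls lay close to the threshold, and most fits that left out 1 array lost them. When each array was left out in turn, Akr7a5 kept an adjusted p under 0.05 in 5 of 19 fits, those without control VP 2, control VP 3 or control DLP 1, 4 or 5, and had 0.051 to 0.124 in the other 14. Ikbkg kept it in 6 of 19, those without control VP 2, HFD VP 3, control DLP 1, 4 or 5 or HFD DLP 4, and had 0.055 to 0.142 in the other 13. The interactions themselves moved little, from -0.92 to -0.79 for Akr7a5 and from 1.00 to 1.18 for Ikbkg. With the array number within a diet as a fixed block, limma's adjusted p was 0.153 for Akr7a5 and 0.210 for Ikbkg, and with the number over all groups as a fixed block it was 0.113 for both.

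**Figure D2:**
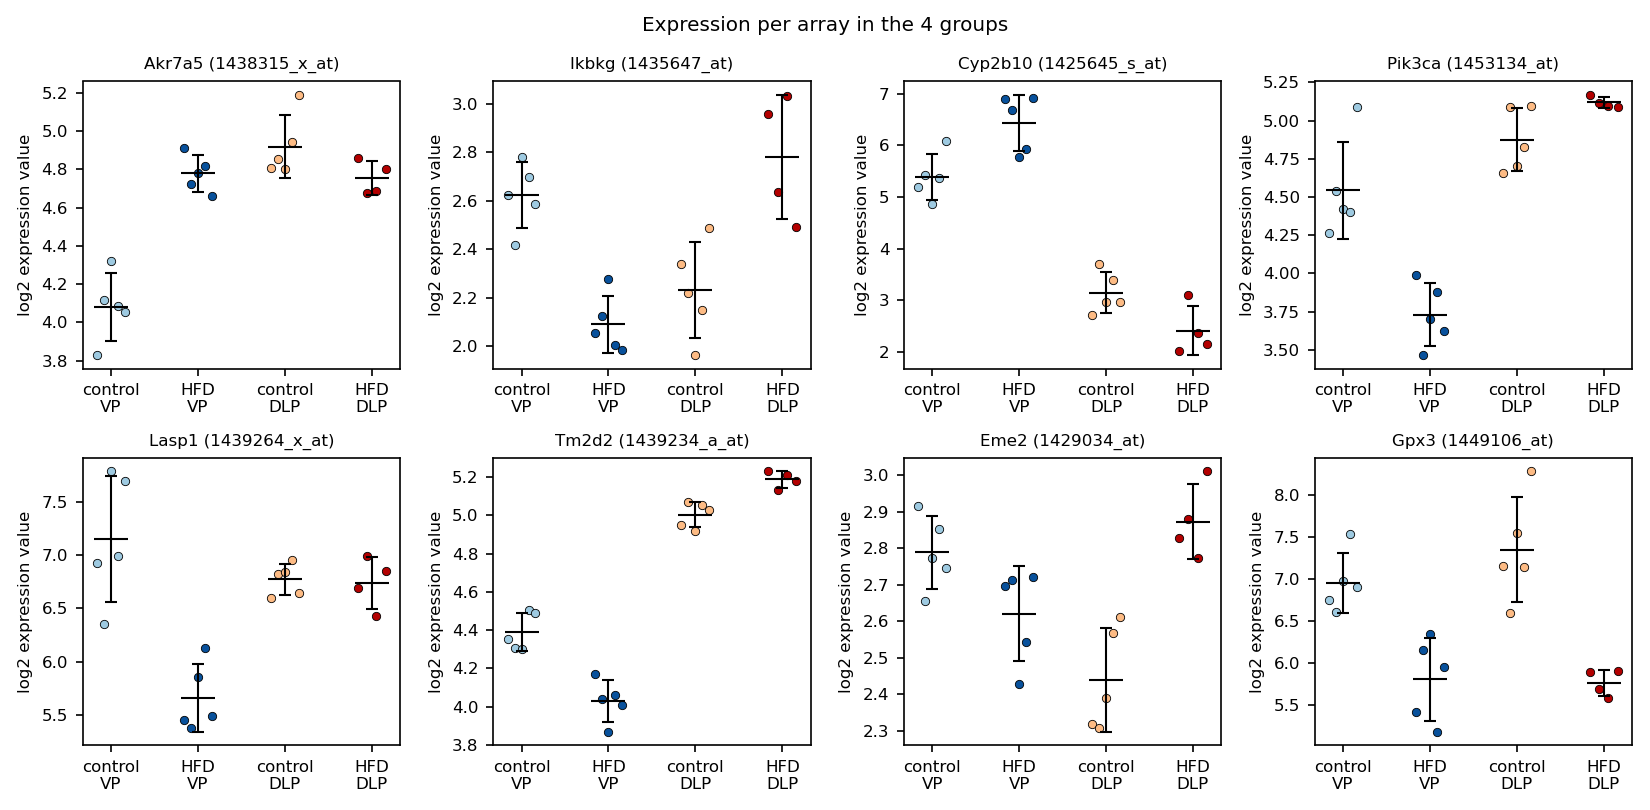
Log2 expression value on each array (points), with mean and SD of each group (bars), for 8 probe sets. Akr7a5 rose on HFD in VP, Ikbkg and Tm2d2 had non-overlapping diet groups of opposite direction in the lobes, and Gpx3 had lower values on HFD in both.

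The next genes in order of p were read as a list of 24, the 12 in each direction with the smallest interaction p, with unadjusted p-values up to 0.00019 and adjusted p-values up to 0.166 (Akr7a5 and Ikbkg included). Because the interaction chose them, their differences in each lobe are descriptions. In 19 of the 24 the VP groups did not overlap (2.42% of all probe sets), and in 6 the DLP groups did not (2.9% of all). The VP difference was the larger in size in 22.

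Among the genes with higher HFD values in VP and lower ones in DLP were Syne4, Hspa5, Fam107b and Ppp2r1a. Syne4, a nuclear envelope protein that links the nucleus to kinesin, had an interaction of -0.88 ± 0.17 (SE), with a VP difference of 0.51 (adjusted p = 0.036) and a DLP difference of -0.37. Hspa5, the chaperone BiP of the endoplasmic reticulum, had an interaction of -0.97 ± 0.20 (SE) by its lowest probe set (1447824_x_at). Its values there were 3.72 to 4.37 in control VP, 4.26 to 4.93 in HFD VP, 5.85 to 6.18 in control DLP and 5.18 to 5.93 in HFD DLP, so the groups overlapped in both lobes. Its most abundant probe set (1416064_a_at) had lower mean values on HFD in both lobes, by -0.13 in VP and -0.65 in DLP. Ppp2r1a, the scaffold subunit of protein phosphatase 2A, had an interaction of -0.72 ± 0.15 (SE), from a VP difference of 0.53 (adjusted p = 0.0171) and a DLP difference of -0.19.

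In the opposite direction, the difference lay mainly in VP. Lasp1, an actin-binding adaptor protein, had an interaction of 1.46 ± 0.30 (SE). Its values were 6.92, 6.36, 7.79, 6.99 and 7.69 in control VP and 5.46, 5.38, 5.86, 6.13 and 5.50 in HFD VP, against 6.60 to 6.96 in control DLP and 6.43 to 6.99 in HFD DLP. Lasp1 thus fell by 1.49 in VP (adjusted p = 0.0036), with a DLP difference of -0.03. Pik3ca, the catalytic p110α subunit of phosphoinositide 3-kinase, had an interaction of 1.06 ± 0.19 (SE). Its values were 4.26, 4.54, 4.42, 4.41 and 5.09 in control VP, 3.99, 3.46, 3.70, 3.88 and 3.62 in HFD VP, 4.66 to 5.10 in control DLP and 5.09 to 5.17 in HFD DLP. Yipf5, a Golgi membrane protein, had an interaction of 1.32 ± 0.28 (SE), with a fall of 1.10 in VP (adjusted p = 0.0113) and a DLP difference of 0.22. By its most abundant probe set (1418576_at) the Yipf5 interaction was 0.06, with limma's unadjusted p at 0.58.

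In DLP the difference was the larger in size for Ikbkg and Eme2. Eme2, a partner of the Mus81 DNA endonuclease, was at 2.32, 2.31, 2.39, 2.57 and 2.61 in control DLP and 2.83, 2.88, 2.77 and 3.01 in HFD DLP, whereas its VP groups overlapped (2.65 to 2.92 on control, 2.43 to 2.72 on HFD). Its interaction was 0.60 ± 0.13 (SE). Pds5a, a regulator of cohesin, had an interaction of 0.69 ± 0.15 (SE) with near equal differences of 0.34 in DLP and -0.35 in VP.

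The 5 genes with the smallest diet p in DLP were Gpx3, Ncald, Clcn7, Actg1 and Hp1bp3, none past adjustment. Ncald, a neuronal calcium sensor, was at 3.40, 3.68, 3.36, 3.50 and 3.69 in control DLP and 2.93, 2.96, 3.16 and 2.90 in HFD DLP, with 2.73 to 3.08 on all VP arrays. Its interaction of -0.56 ± 0.13 (SE) had an adjusted p of 0.20. Clcn7, a lysosomal chloride transporter, had an interaction of -0.46 (adjusted p = 0.46), Actg1, the γ-actin gene, 0.39 (0.51) and Hp1bp3, a chromatin protein, 0.23 (0.59). The most abundant probe sets of Clcn7 (0.18) and Hp1bp3 (-0.24) had the opposite sign.

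Most of these patterns rested on 1 probe set of the gene. Of the 24 genes, 21 had other tested probe sets, 57 in all. Of the 57, 33 had the same sign as the chosen one, 8 had the same sign with an unadjusted p under 0.05, 2 had the opposite sign with an unadjusted p under 0.05, and 6 had the same sign at 0.5 or more of the size. The 8 belonged to 6 genes: Cyp2b10, Fam107b, Ier3ip1, Lasp1, Tcn2 and Yipf5. For Lasp1 the 7 other probe sets ran from -0.68 to 0.59, and for Pik3ca the 4 others ran from -0.15 to -0.01. Slu7, a splicing factor with an interaction of -0.46 by its chosen probe set, had other probe sets between 0.09 and 0.38, the highest of them, which is also its most abundant, with limma's unadjusted p at 0.0039. By their most abundant probe sets, Ppp2r1a (0.15), Esf1 (0.25), Lasp1 (-0.22) and Pik3ca (-0.01) likewise had interactions of the opposite sign.

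**Figure D3:**
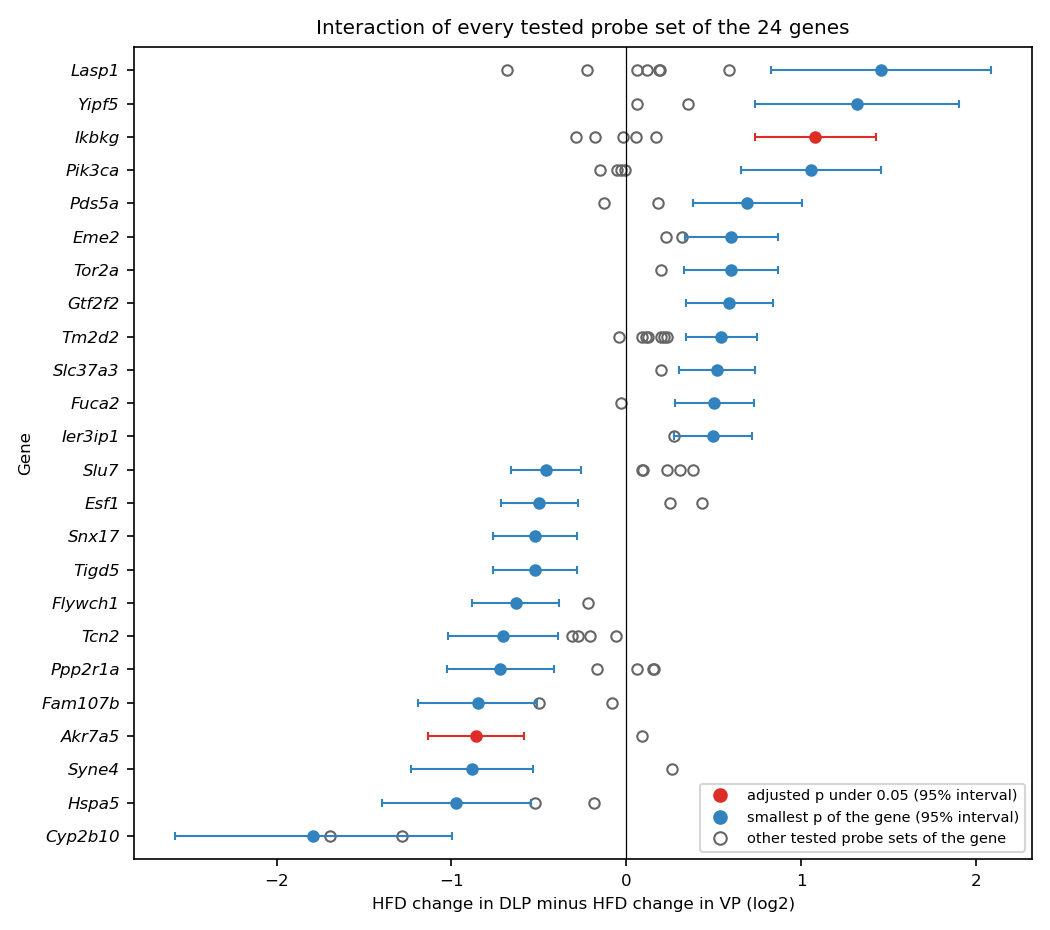
Interaction (log2, HFD change in DLP minus HFD change in VP) of every tested probe set of the 24 genes, with the chosen probe set filled and its 95% interval, and the others open. The open points of Akr7a5, Ikbkg, Pik3ca and Slu7 lie near zero or across it, and those of Cyp2b10 lie beside the chosen point.

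Over all 5473 genes with 2 or more tested probe sets, agreement was weaker for the diet than for the lobe. The interactions of a gene's 2 most abundant probe sets had a Pearson r of 0.313 across genes and the same sign in 57.3%. The corresponding r was 0.377 for the VP difference, 0.416 for the DLP difference and 0.801 for DLP minus VP in control mice, where 73.4% had the same sign. Probe sets ending in x_at had an interaction p under 0.05 in 12.9% of cases, against 7.26% of those with a plain ending. In the list of 24, 6 ended in x_at, as did 6.55% of all tested probe sets.

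Diet groups that did not overlap in either lobe, with opposite directions, were seen for 6 probe sets (0.0241%), against 17 with the same direction (0.0684%). The 6 were Ikbkg, Tm2d2, Gtf2f2, Slu7, Elp2 and 1 probe set without a symbol here (1423798_a_at). Elp2 and the unnamed one fell outside the rule for named genes and are given because their groups did not overlap. Tm2d2, a membrane protein, was at 4.35, 4.31, 4.30, 4.50 and 4.49 in control VP and 4.17, 4.04, 3.87, 4.06 and 4.01 in HFD VP. In DLP it was at 4.95, 5.07, 4.92, 5.05 and 5.03 on control and 5.23, 5.13, 5.21 and 5.18 on HFD. The HFD arrays were thus all lower in VP and all higher in DLP by this probe set (1439234_a_at), and the interaction was 0.54 ± 0.10 (SE, adjusted p = 0.128). By the other tested probe sets of Tm2d2 the responses of the lobes differed 1.03- to 1.18-fold, against 1.46-fold by this one. The most abundant of them (1439454_x_at) had an interaction of 0.11, with limma's unadjusted p at 0.46.

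Gtf2f2, the small subunit of transcription factor IIF, was at 3.27, 3.25, 3.48, 3.54 and 3.60 in control VP and 3.09, 3.04, 2.97, 2.95 and 3.20 in HFD VP. In DLP its values were 3.06 to 3.22 on control and 3.23 to 3.46 on HFD, and the interaction was 0.59 ± 0.12 (SE, adjusted p = 0.164). It is the only one of the 5 named genes without a second tested probe set. Elp2, a subunit of the Elongator complex, had an interaction of 0.87 ± 0.20 (SE, adjusted p = 0.20) by 1 probe set, and its more abundant one (1438179_s_at) was at 6.73 to 7.26 on all VP arrays and 5.88 to 6.19 on all DLP arrays, with an unadjusted p of 0.69.

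Cyp2b10, a cytochrome P450 that the xenobiotic receptor CAR induces in liver, had the same pattern in all 3 of its tested probe sets. By the most abundant (1425645_s_at) it was at 5.18, 5.43, 4.87, 5.37 and 6.08 in control VP and 6.89, 6.68, 5.78, 5.93 and 6.92 in HFD VP. In DLP it was at 2.71, 3.70, 2.97, 3.40 and 2.96 on control and 2.02, 3.10, 2.37 and 2.16 on HFD. The diet groups overlapped in both lobes, by 2 HFD VP arrays below the highest control and by 1 HFD DLP array above 3 controls. The differences were 1.05 in VP, or 2.08-fold higher on HFD (adjusted p = 0.058), and -0.74 in DLP, or 1.67-fold lower (unadjusted p = 0.0147). The interaction was -1.79 ± 0.38 (SE), with a 95% interval from -2.58 to -1.0 and an adjusted p of 0.166. The other probe sets (1422257_s_at and 1451787_at) had interactions of -1.70 and -1.28. Their DLP differences were -0.74 and -0.46 (limma's unadjusted p = 0.027 and 0.145), with HFD DLP means of 1.97 and 2.00, near the array median. By 1425645_s_at the highest DLP arrays were control DLP 2, control DLP 4 and HFD DLP 2. Spink5, the ventral marker, was also highest in DLP on these arrays (3.31, 3.51 and 3.27). The part of ventral tissue in the Cyp2b10 values was not tested. Probes of the 3 sets may overlap or match related Cyp2b genes, which was not tested, and the agreement is therefore not 3 independent measurements.

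Agreement of this kind was uncommon. Of the 5473 genes with 2 or more tested probe sets, 115 (2.1%) had at least 2 with an interaction p under 0.05 and the same sign, and 30 (0.548%) had every tested one. Among genes with 3 tested probe sets, all 3 were in agreement for Cyp2b10, Rtraf, Trmt1, Cycs, Dsp and Sdc3, named after their values were seen. Their median interactions were smaller than that of Cyp2b10. Cycs, cytochrome c, had 0.30, from -0.25 in VP and 0.06 in DLP. Trmt1, a tRNA methyltransferase, had 0.31. Dsp, the desmosomal protein desmoplakin, had -0.32, and Sdc3, a cell surface heparan sulphate proteoglycan, -0.56, from 0.28 in VP and -0.28 in DLP. None of these passed adjustment, with adjusted p-values from 0.166 to 0.616 over their probe sets. Sdc3 lay near the array median by 1420853_at and 1436482_a_at (means of 2.13 and 1.85). Dsp did so by 1427610_at (1.94), with differences of 0.41 in VP and -0.02 in DLP, against 0.05 and -0.24 by 1435493_at. Genes with more tested probe sets agreed in part, such as Rpl35 (4 of 5), Prkar1b (3 of 4) and Slco2a1 (3 of 4). Slco2a1 had median differences of 0.008 in VP and 0.56 in DLP, also without passing adjustment. By 1420914_at, 1444242_at and 1450032_at it exceeded the array median on only 1, 2 and 1 VP arrays. A fall in VP could hardly have been seen there. By 1420913_at, above the median on all 10 VP arrays, the differences were 0.20 in VP and 0.82 in DLP. Prkar1b exceeded the median on 4, 9, 1 and 0 VP arrays by its 4 probe sets.

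Gpx3, a secreted selenium-containing peroxidase named in the title of the series, had no interaction past the threshold. It was at 6.74, 6.61, 6.97, 7.53 and 6.90 in control VP and 5.41, 6.15, 6.34, 5.18 and 5.96 in HFD VP. In DLP it was at 7.16, 6.60, 7.55, 7.14 and 8.28 on control and 5.89, 5.69, 5.58 and 5.90 on HFD. All HFD arrays were below all control arrays in each lobe. The interaction was -0.44 ± 0.37 (SE, adjusted p = 0.80), and its interval, from -1.20 to 0.33, covers a much larger fall in DLP as well as a slightly larger fall in VP. Of the 6 glutathione peroxidases tested, out of 8, none passed for the interaction. Gpx8, a peroxidase of the endoplasmic reticulum, had the smallest p, with an interaction of 0.34 ± 0.14 (SE, unadjusted p = 0.0217). Gpx1, the cytosolic enzyme, had -0.08 and Gpx4, which reduces lipid hydroperoxides, -0.15.

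Among lipid genes, Srebf1, the transcription factor that drives fatty acid synthesis, rose on HFD in VP. It was at 5.16, 5.03, 4.89, 5.25 and 5.19 in control VP and 5.79, 5.68, 5.46, 5.58 and 5.95 in HFD VP. In DLP it was at 5.21 to 5.38 on control and 5.38 to 5.53 on HFD. The difference was 0.59 in VP (adjusted p = 0.0044) and 0.18 in DLP, and the interaction was -0.41 ± 0.12 (SE, unadjusted p = 0.0035, adjusted p = 0.41). Of 18 fatty acid synthesis genes tested, out of 21, 12 had a negative interaction, 3 had an unadjusted p under 0.05 (16.7% of the list, against 8.52% of all genes), none passed adjustment, and the median was -0.14 (-0.09 without HFD DLP 2 and also without control VP 4). Those 3 were Srebf1, Gpam and Scd2, all negative.

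Of 19 cholesterol synthesis genes tested, out of 24, 16 had a negative interaction, with a median of -0.15. That median was -0.24 without HFD VP 3, -0.08 without HFD VP 5, -0.09 without control VP 1 and -0.10 without HFD VP 2. Their median differences were -0.10 in VP and -0.20 in DLP, and none passed in either lobe. Fdps, farnesyl diphosphate synthase, had -0.42 in VP and -0.65 in DLP, and Sqle, squalene epoxidase, -0.02 and -0.35, with an interaction of -0.34 (unadjusted p = 0.0475). Among 25 fatty acid oxidation genes tested, out of 29, Acot2, a mitochondrial acyl-CoA thioesterase, had the smallest p, with an interaction of -0.73 ± 0.22 (SE, adjusted p = 0.40), and the list's median was -0.09.

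In the retinoid list, Crabp1, a cytosolic carrier of retinoic acid, fell in VP. It was at 6.84, 6.71, 6.35, 6.32 and 6.23 in control VP and 5.45, 5.85, 4.30, 4.78 and 5.75 in HFD VP, a difference of -1.26 (adjusted p = 0.0210). In DLP it lay at 0.66 to 1.80 on all arrays, below the array median, so a fall there could hardly have been seen. Its interaction of 1.21 ± 0.37 (SE, adjusted p = 0.41) sets a well-expressed gene against one near the floor of the scale. Rdh11, a retinal reductase, had an interaction of 0.48 ± 0.12 (SE, unadjusted p = 0.00052, adjusted p = 0.24). Of 13 retinoid genes tested, out of 20, 3 had an unadjusted p under 0.05 (23.1% of the list, against 8.52% of all genes).

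Npas2, a clock transcription factor paired with Arntl, fell in VP by 0.66 (adjusted p = 0.0206), with values of 2.07 to 2.45 on control and 1.11 to 1.93 on HFD. Its DLP values were 1.45 to 1.84 and 1.44 to 1.71, and the interaction was 0.55 ± 0.19 (SE, adjusted p = 0.49). Since it exceeded the array median on 6 VP arrays and on 0 DLP arrays, a fall in DLP could hardly have been seen for Npas2 either. Col6a3, a chain of type VI collagen, had a VP fall of 0.62 (adjusted p = 0.0296) and an interaction of 0.69 ± 0.19 (SE, adjusted p = 0.34). In the actin list of 22 tested genes, out of 23, Actb and Actg1 had interactions of opposite sign, -0.43 and 0.39. Of the heat shock genes, 16 tested out of 18, 12 had a negative interaction with a median of -0.17, and none had an unadjusted p under 0.05. That median was -0.09 without control DLP 1 and without control VP 5, -0.11 without HFD VP 3 and without HFD DLP 4, and -0.06 with each gene's probe sets averaged.

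**Figure D4:**
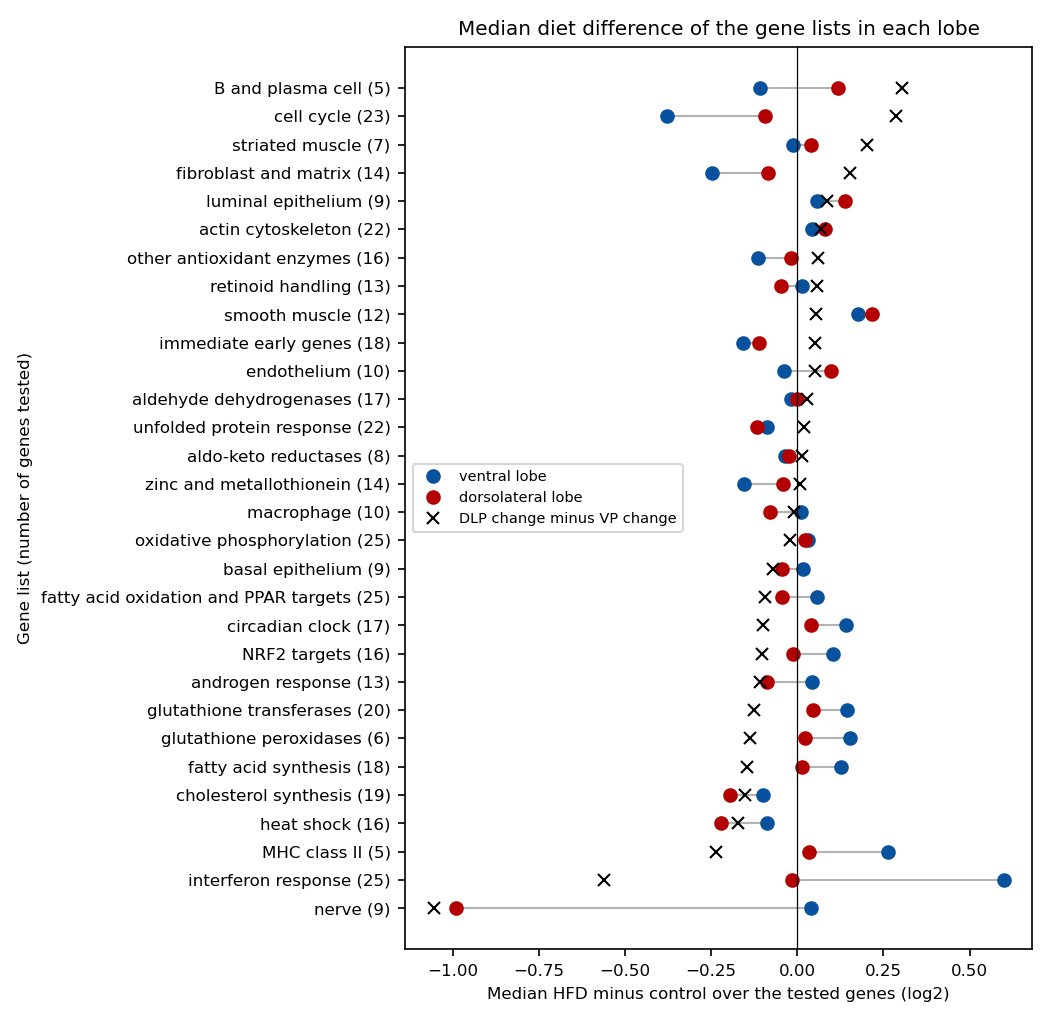
Median HFD minus control difference (log2) over the tested genes of each list with 5 or more tested, in VP and in DLP, with the median interaction as a cross. The interferon list stands highest in VP at 0.60, the nerve list, with 8 of 9 genes below the array median in VP, lowest in DLP at -0.99, and most lists lie within 0.3 of zero in both lobes.

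Genes induced by interferon were the list with the largest median interaction among the pathways. Of 25 tested, out of 28, 24 had a negative interaction with a median of -0.56, against 49.9% positive and a median of -0.00051 over all 11728 genes. The list's medians were 0.60 in VP and -0.02 in DLP. Ifit3, an antiviral RNA-binding protein, ranged from 2.47 to 5.85 in control VP and from 3.75 to 6.74 in HFD VP, against 2.32 to 2.85 in control DLP and 2.54 to 2.87 in HFD DLP. Its interaction was -1.83 ± 0.81 (SE, unadjusted p = 0.0353). The VP groups thus overlapped widely, and the DLP values were low on both diets.

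None of the 25 passed adjustment for the interaction, and 2 had an unadjusted p under 0.05 (8% of the list, against 8.52% of all genes). The mean level of the list was 4.54, 3.40, 4.29, 3.44 and 3.11 on the control VP arrays and 4.28, 4.35, 5.49, 3.50 and 4.61 on the HFD VP arrays, so control VP 1 and 3 lay within the range of the HFD arrays and HFD VP 3 stood highest. On the DLP arrays it lay between 2.66 and 3.23. Over 10 tested macrophage genes, the mean level was 4.23, 3.28, 4.34, 4.21 and 3.10 in control VP and 3.37, 3.33, 5.11, 3.77 and 3.50 in HFD VP, so HFD VP 3 was also the highest for macrophage genes and control VP 1 and 3 were among the higher arrays. HFD VP 3 was the highest for MHC class II genes too, at 6.57 against 4.25 to 5.80 on the other VP arrays. The part of such cells in the interferon values was not tested. Without HFD VP 3, the median interaction was -0.35 with 23 of 25 negative, and without control VP 4 and HFD VP 3 it was -0.26 with 21 negative. The 5 tested MHC class II genes, which present antigen, had a median interaction of -0.24, which was 0.15 without HFD VP 3 and -0.49 without control VP 3. It was -0.48 without HFD VP 2, and between -0.11 and -0.04 without control VP 2, control VP 5 or control DLP 1.

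Cell cycle genes had the opposite pattern. Of 23 tested, out of 28, 21 had a positive interaction, with a median of 0.29 and medians of -0.38 in VP and -0.09 in DLP. Top2a, the topoisomerase of dividing cells, had a VP difference of -0.75 and a DLP difference of -0.22, and Mki67, the proliferation marker, -0.91 and -0.32. Ncaph, a condensin subunit, fell by 0.70 in VP (adjusted p = 0.0111) and had a DLP difference of -0.41, so its interaction was 0.29 (adjusted p = 0.73). Kif4, a chromosome kinesin, went the other way, with an interaction of -0.53 (unadjusted p = 0.0475), the single one of the 23 under 0.05 (4.35%, against 8.52%). Kif4 exceeded the array median on only 1 VP and 3 DLP arrays.

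The mean level of the cell cycle list was 2.80, 3.55, 3.58, 2.64 and 2.44 in control VP and 2.34, 2.69, 2.85, 2.56 and 2.41 in HFD VP, with 2.34 to 2.79 in DLP. Control VP 2 and 3 were thus the high arrays. Without control VP 2 the median interaction was 0.20 with 19 of 23 positive, without control VP 3 it was 0.23 with 17 positive, and without control VP 4 and HFD VP 3 it was 0.46 with 21 positive.

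Among markers of other tissues, nerve genes had a median DLP difference of -0.99 over 9 tested genes, out of 12. Of the 9, 8 did not exceed the array median on any VP array and passed the filter only through DLP arrays, so a diet response in VP could hardly have been seen. The median interaction of -1.06, with all 9 negative, therefore mirrors the DLP difference, and none of the 9 had an interaction p under 0.05. The mean level of the list was 1.86, 4.16, 1.70, 3.47 and 4.71 in control DLP, 1.96, 1.92, 2.57 and 2.54 in HFD DLP, and 0.82 to 1.25 in VP. Control DLP 2, 4 and 5 were high, control DLP 1 and 3 lay below all HFD DLP arrays, and the median interaction was -0.60 without control DLP 5 and -0.72 without control DLP 2. Uchl1, a neuronal ubiquitin hydrolase, ranged from 2.22 to 5.28 in control DLP and from 2.40 to 2.94 in HFD DLP. Outside the list, Prkar1b (1434325_x_at) was at 2.86, 3.96, 2.50, 3.50 and 4.54 in control DLP, again highest on arrays 2, 4 and 5. The same arrays were highest by its other probe sets except 1440133_x_at. Among control DLP arrays they were also highest for Ncald and for Sdc3 by 1420853_at, but not for Sdc3 by its other probe sets. The part of nerve tissue in the DLP differences of these and other genes was not tested.

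Of the 8 seminal vesicle markers, the 2 tested, Svs4 and Svs5, had a mean level of 5.51 on HFD VP 2, 2.19 on HFD VP 1 and 3.93 on HFD DLP 1, against 0.36 to 2.38 on the control arrays, and their part in the diet differences was not tested. Spink5 itself had an interaction of -1.19 ± 0.56 (SE, unadjusted p = 0.0449, adjusted p = 0.61), from low values in DLP. Of 10 macrophage genes tested, out of 12, 5 had a positive interaction, with a median of -0.01. That median rested on single arrays and was 0.35 without HFD VP 3, where the VP median difference went from 0.01 to -0.37, and -0.16 without control VP 3, so these arrays do not settle its direction. The 9 luminal epithelial genes had a median of 0.09, and of 0.03 to 0.14 when each array was left out.

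**Figure D5:**
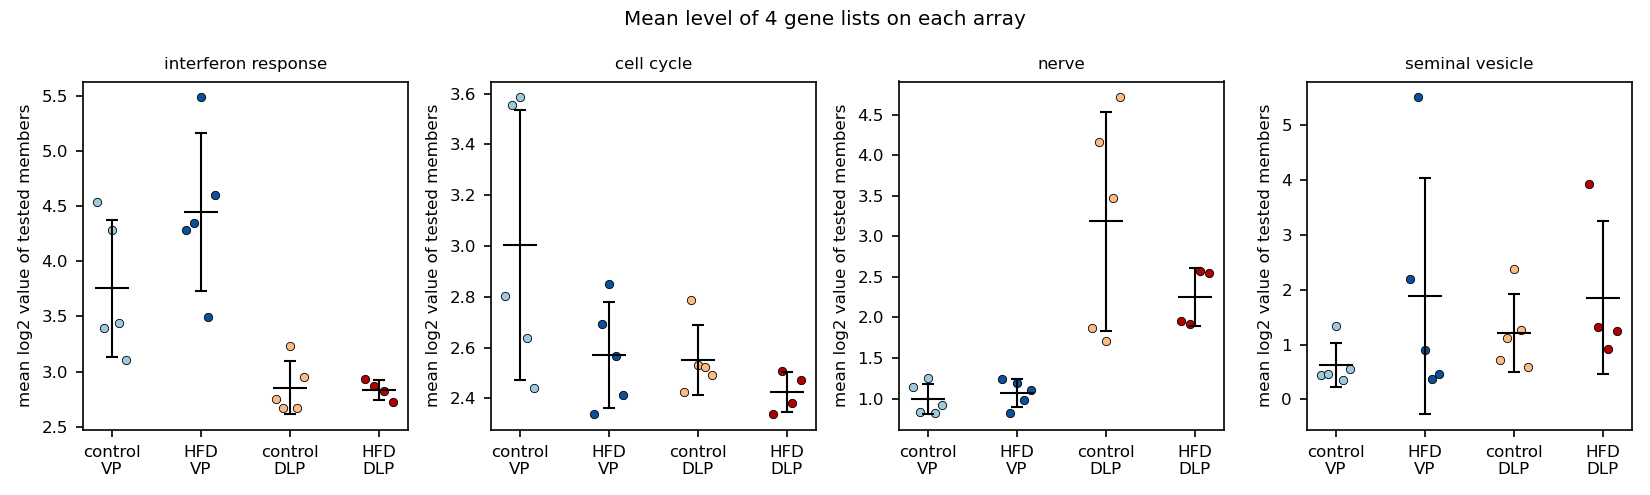
Mean log2 value over the tested members of 4 lists on each array (points), with mean and SD of each group (bars). HFD VP 3 is the highest for interferon genes, control VP 2 and 3 for cell cycle genes, control DLP 2, 4 and 5 for nerve genes, and HFD VP 2 and HFD DLP 1 for seminal vesicle genes.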

How the data were processed

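RNA was measured on 19 Affymetrix 3′ arrays, biotin labelled per the labels' protocols. The deposited log10 values come from MAS5, per the submitters' processing notes; log base and offset are not given in the sources used here and were inferred as log10 of signal plus 1. Values were converted to log2 without further normalization. Of 45101 probe sets, 64 controls were left out. By the array's annotation, 34958 probe sets carried a single symbol, 932 more than one and 9211 no symbol, and 34754 symbols were updated through gene identifiers in a table of mouse RefSeq genes. A gene was represented by its most abundant probe set in lists.

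Differences were tested with limma 3.58.1 (R 4.3.3), using lmFit with 4 group means over all arrays, contrasts, and eBayes with a mean-dependent prior. P-values are two-sided and adjusted by Benjamini-Hochberg over 24867 probe sets, with a threshold of 0.05. The fit was tested on simulated data. Exact permutation tests within a lobe were also run for Akr7a5, Ikbkg and Gpx3 but are not reported, since genes were chosen on the same values. Named genes were those past the interaction threshold, the 12 in each direction with the smallest interaction p, all glutathione peroxidases, up to 2 members per list with p under 0.05, and the 5 with the smallest diet p in each lobe. Members and lists were chosen with earlier results of these data known. List members without a tested probe set of their own were not analysed here. Alternatives covered offset, filter, probe set choice, variance prior, array weights, cyclic loess, replicate block, and each array left out. The number of arrays limits the precision.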

Additional observations from a re-analysis of the deposited data

Results flagged for a closer look

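The diet responses of Akr7a5 (interaction -0.86) and Ikbkg (1.08) differed between the lobes by a test of the difference itself, each by 1 probe set. The other probe set of Akr7a5 had 0.09 and the 5 others of Ikbkg -0.29 to 0.17. The calls held in 5 (Akr7a5) and 6 (Ikbkg) of the 19 fits that left out 1 array, and in none of the 2 fits with the array number as a fixed block.

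In 10 of 252 groups examined (63 probe sets in 4 groups), 1 array lay far from the others of its group by Dixon's criterion, where chance alone would give 12.6. In the ventral lobe these were Ppp2r1a at 3.85 and Gpx4 at 7.30 on control VP 4, Snx17 at 7.75 on control VP 5, Gpx8 at 5.67 on HFD VP 3 and Mt1, a metallothionein, at 9.97 on HFD VP 4. In the dorsolateral lobe they were Tor2a at 5.91 on control DLP 1, Crabp1 at 1.80 on control DLP 2, Gpx2 at 3.16 and Slc39a6, a zinc transporter, at 4.13 on HFD DLP 1, and Tcn2, the vitamin B12 carrier transcobalamin, at 4.10 on HFD DLP 2.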

How the results depend on the processing

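Of 63 named genes, 18 were named by another probe set than their most abundant, and by the latter the interaction had the opposite sign for 7: Ppp2r1a (0.15), Slu7 (0.38), Esf1 (0.25), Pik3ca (-0.00997), Lasp1 (-0.22), Clcn7 (0.18) and Hp1bp3 (-0.24). By the named probe set no interaction of the 63 changed sign under the other alternatives run. The number of probe sets past the interaction threshold, 2, was 1 with the filter at the 75th percentile, with 1 probe set per gene, with 1 weight per lobe and with cyclic loess, and 0 without control VP 4 and HFD VP 3 together; it ranged from 0 to 4 when each array was left out. Syne4 passed without control DLP 4 (-0.99) and Lasp1 without control VP 2 (1.65). The VP count of 224 was 589 at an adjusted p of 0.10, 144 without a filter, 386 with the filter at the 75th percentile, 130 with 1 probe set per gene, 146 without a trend in the prior, 121 with array weights and 62 with 1 weight per lobe, and ranged from 141 to 225 when each array was left out. The DLP count of 0 was 12 with array weights and 9 with 1 weight per lobe, and ranged from 0 to 1. The cause of these shifts was not tested.

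The labels number the arrays 1 to 5 in each group. Deviations of same-numbered VP and DLP arrays of a diet correlated at -0.024 to 0.18 over 9 pairs (median 0.093, over 0.1 in 4). The median for other numbers was -0.0062. Of the 9 VP arrays with a same-numbered DLP array, 6 correlated best with their own number. This is a hint of pairing, but not every pair exceeded 0.1 and the labels tie no array to a mouse, so the numbers were not taken as pairs. With the number within diet as a fixed replicate block the interaction count was 0 (adjusted p = 0.153 for Akr7a5 and 0.210 for Ikbkg), with the number over all groups as a fixed block 0 (0.113 for both) and as a random block 2. The diet difference within a lobe cannot be estimated under the fixed block within diet.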
